A study of Mus musculus with 4 samples.

Results

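The genes described here are 36 sarcomere proteins other than the myosins, actins and troponins: the proteins of the Z-disc and the M-band, those bound to the thin and thick filaments, titin with its ankyrin-repeat partners, desmin and its linkers, and a pair of assembly chaperones. They were taken by gene symbol from the array annotation, by a rule that uses no measured value, although the list was drawn up with earlier results of these data known, and 76 of the 41174 non-control probes carry one of these symbols (36 of 27398 gene names on the array). The cells were C2C12, an established line of mouse myoblasts that fuse into multinucleate myotubes when serum is withdrawn. In one group recombinant human follistatin 288 was added at 200 ng/ml, renewed every 24 h through 6 days of differentiation, and the other went untreated for the same 6 days; the medium held 2% horse serum by the growth protocol and 10% by the source names. Each of 4 replicates, biological per the labels, was 1 two-colour Agilent array on which RNA of follistatin cultures was labelled with Cy3 and that of untreated cultures with Cy5, so every value below is a log2 ratio of follistatin over untreated within an array, with negative values where the untreated signal was higher.

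A sarcomere is the repeating contractile unit of striated muscle. Thin filaments of actin are anchored at its ends in the Z-disc, where alpha-actinin crosslinks them, thick filaments of myosin are held in register at its centre by the M-band, and titin spans from one to the other as an elastic ruler. Nebulin runs along the thin filament, tropomyosins lie in its groove, tropomodulins and leiomodins act at its pointed end, and desmin filaments tie neighbouring Z-discs together. Follistatin traps activins and myostatin, secreted ligands that restrain muscle growth, and the comparison asks how adding it during differentiation altered the transcripts of the cells.

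All 4 arrays carry the dyes the same way round, although the labels call them dye swaps, so the treatment and a dye bias of a single probe cannot be told apart. Each channel of each array showed 61.1% to 69.4% of the non-control spots well above background, and the number of arrays limits the precision. Replicates 1 to 3 lay on slide 1 and replicate 4 on slide 2. Across all 27017 tested probes replicates 2 and 3 had a correlation of r = 0.851 and the other pairs of -0.015 to 0.287; over the members, which share these arrays, these were 0.861 and -0.153 to 0.495. Whether replicates 2 and 3 came from shared cultures or RNA is not given in the sources used here, and if they did, the 4 arrays hold fewer than 4 independent replicates. The muscle genes Myod1, Myog, Des, Ckm, Acta1, Myh3, Tnnt3 and Chrna1 were above background in both channels of all 4 arrays, whereas the blood, endothelial, adipocyte and fibroblast markers Ptprc, Pecam1, Adipoq and Thy1 were above it on 0. Of the whole lists, 7 of 9 fibroblast markers, 5 of 7 blood markers, 2 of 6 endothelial and 2 of 7 adipocyte markers were bright enough to be tested. The fibroblast markers had median ratios of 0.57, 0.14, -0.31 and 0.85 on replicates 1 to 4, and the 9 markers of dividing cells 0.17, 0.089, 0.070 and 0.47. Their part in the member values was not tested, and in RNA from whole cultures fewer myotubes and less RNA per myotube cannot be told apart.

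Several findings below turn on which stretch of a long gene, or which of its annotated transcripts, a probe reads. The probes concerned are therefore shown first, as the 60-base sequences of the array in the sense of the transcript, 5′ to 3′, with their positions in mm9. The first 3 read titin on the minus strand of chromosome 2, near the 5′ end (chr2:76803165-76803224), further along (chr2:76783527-76783586) and across an exon junction in the middle of the gene (chr2:76689775-76690126). The next pair read nebulin, also on the minus strand of chromosome 2 (chr2:52168677-52168736 and chr2:52134303-52134362). The last 3 read genes of 1 sign on all arrays: Myom1 (chr17:71475839-71475898, plus strand), Mybpc1 (chr10:87985837-87985896, minus strand) and Pdlim5 (chr3:141967371-141967430, minus strand).
Ttn A_52_P524700: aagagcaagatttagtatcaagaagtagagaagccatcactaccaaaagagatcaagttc
Ttn A_51_P401792: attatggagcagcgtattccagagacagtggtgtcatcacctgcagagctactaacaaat
Ttn A_52_P659477: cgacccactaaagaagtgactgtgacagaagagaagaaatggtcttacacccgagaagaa
Neb A_51_P495331: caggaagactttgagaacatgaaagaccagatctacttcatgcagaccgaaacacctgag
Neb A_51_P218535: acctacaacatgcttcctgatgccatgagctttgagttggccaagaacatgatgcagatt
Myom1 A_51_P302520: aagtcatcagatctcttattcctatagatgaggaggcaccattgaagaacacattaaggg
Mybpc1 A_51_P487404: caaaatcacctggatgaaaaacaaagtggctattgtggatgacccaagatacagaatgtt
Pdlim5 A_52_P649177: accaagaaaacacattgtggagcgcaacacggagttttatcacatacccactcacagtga

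Family members can also share sequence under a probe. The Tpm1 and Tpm2 probes below overlap in 33 aligned bases, of which 27 (81.8%) are identical and printed in capitals; whether either probe also binds the other transcript was not tested.
Tpm1 A_52_P532910: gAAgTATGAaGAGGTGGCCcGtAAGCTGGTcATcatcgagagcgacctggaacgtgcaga
Tpm2 A_52_P418477: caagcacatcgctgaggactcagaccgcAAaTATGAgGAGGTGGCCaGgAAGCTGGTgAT

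Of the 36 genes, 35 were tested through 70 probes. The exception was Cmya5 (myospryn), whose 3 probes were above background on 0 or 1 of the 4 arrays; single dim probes of Xirp2, Myom1 and Tpm1 were also left out, though other probes of these genes were tested. No member passed limma at an adjusted p of 0.05, where 0% of all 27017 probes passed, and the smallest adjusted p among the genes was 0.127, for Myom2. At an unadjusted p under 0.05, 5 of 35 members were lower (14.3%; 10.5% of all probes) and 3 were higher (8.57%; 8.57% of all probes). Below 0 on all 4 arrays lay 5 members (14.3%; 14.5% of all probes), and 5 lay above 0 on all 4 (14.3%; 12.8% of all probes). By the brightest probe of each gene, the shares of members with 1 sign were thus near those of the whole array. On the 3 arrays of slide 1, without replicate 4, 10 members were below 0 throughout (28.6%; 25.4% of all probes) and 7 above (20%; 25% of all probes). With arrays weighted by their fit, which gave replicates 2 and 3 weights of 2.26 and 1.66, 5 members passed the adjusted threshold (Mybpc1 higher, and Mybpc2, Myom1, Myom2 and Neb lower), as did 3704 of all 27017 probes (13.7%). With the like replicates 2 and 3 averaged into 1, 0 members passed limma's threshold (0% of all probes, smallest adjusted p 0.315), with Myom1 at 0.367 and Neb at 0.504. A mean ratio more than 1.6-fold lower was seen for 3 members, Neb, Ttn and Myom1 (4.02% of all probes), and more than 1.6-fold higher for 0 (1.3% of all probes). Over all 35 genes 18 means lay below 0 and 17 above, with a median of -0.0074 (50.5% of all probes below 0, median -0.0028).

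**Figure D1:**
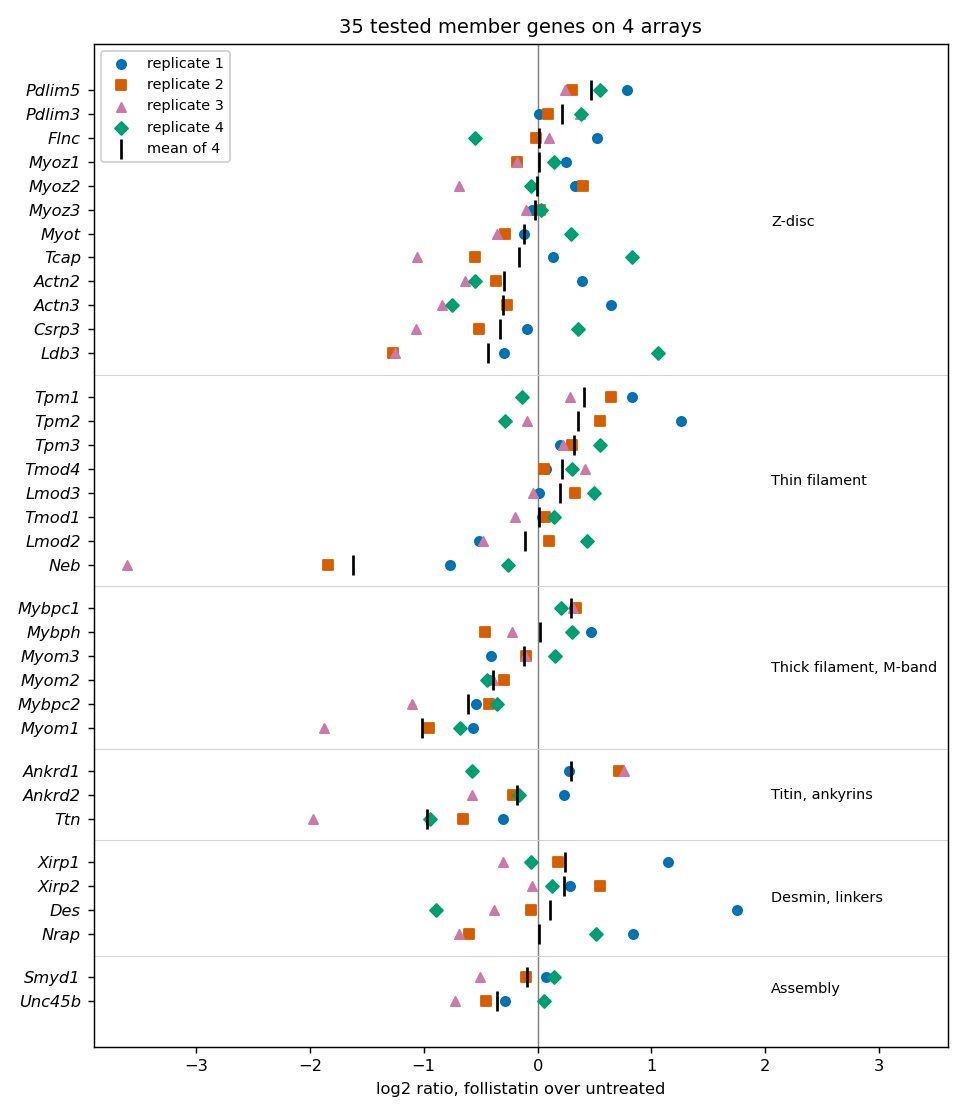
Log2 ratio of follistatin over untreated (horizontal axis) for each of the 35 tested genes, 1 symbol per replicate array and a bar at the mean of 4, grouped by role. Neb, Myom1, Ttn, Mybpc2 and Myom2 have all 4 symbols left of 0 and Pdlim5, Pdlim3, Tpm3, Tmod4 and Mybpc1 all 4 right of it, while Des spans from -0.89 to 1.75.

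The arrays differed in where the members lay as a whole. On replicate 1, 12 of 35 genes were below 0, on replicate 2 it was 20, on replicate 3 it was 27 and on replicate 4 it was 15, against 48.7% to 52% of all other probes. The median of the 70 member probes minus that of all other probes was 0.17, -0.083, -0.27 and 0.082 on replicates 1 to 4, a mean of -0.026 ± 0.20 (SD, n = 4), so the list as a whole sat on both sides of 0. Replicate 3 held 11 members more than 1.6-fold lower (11.3% of other probes on that array), and replicate 1 held 6 more than 1.6-fold higher (6.9% of other probes).

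Among the 6 role groups, that of the thick filament and the M-band was the one whose median lay below 0 on every array. The median of its 6 genes was -0.42, -0.36, -0.31 and -0.10 on replicates 1 to 4, and 4 of the 6 means were below 0. Myom1 encodes myomesin 1, the principal crosslinker of the M-band. Its processed signal was 8987, 9221, 10009 and 11387 in the untreated channel and 5921, 4746, 2750 and 7109 in the follistatin channel of replicates 1 to 4. The follistatin signal was the lower on each array. The log2 ratios were -0.57, -0.95, -1.88 and -0.68, a mean of -1.02 ± 0.59 (SD, n = 4), or 2.03-fold lower (limma adjusted p = 0.134, 95% interval -1.60 to -0.43). A second Myom1 probe, 33.6 kb nearer the 5′ end of the gene, gave -0.69, -0.65, -1.46 and -0.15 (mean -0.74), also below 0 on all 4 arrays.

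Myom2 encodes the second myomesin, the form typical of fast fibres. It was among the brightest members, and its ratios were -0.42, -0.30, -0.39 and -0.45, a mean of -0.39 ± 0.066 (SD, n = 4) (adjusted p = 0.127, limma), the narrowest spread of the 5 members below 0 on all arrays in the loess values. In the scanner software's own processed signals it read 382126, 424212, 343838 and 334618 untreated and 310856, 384616, 338683 and 267123 with follistatin, lower on each array though by little on replicate 3. The log2 ratios of those signals were -0.30, -0.14, -0.022 and -0.33, with a mean of -0.20 (adjusted p = 0.519, limma), while median centring in place of loess gave -0.63 (adjusted p = 0.109), so the size and the spread depend on the normalization. Its second probe, 59.7 kb to the 5′ side, read -0.056, -0.21, -0.89 and -0.46. Myom3, the third myomesin, gave a mean of -0.12 with 3 of 4 arrays below 0.

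The myosin-binding proteins C, which stripe the thick filament and tune crossbridge cycling, lay on opposite sides of 0. Mybpc2, the fast-muscle isoform, had ratios of -0.54, -0.43, -1.11 and -0.36, a mean of -0.61 ± 0.34 (SD, n = 4) or 1.53-fold lower (adjusted p = 0.144, limma). Mybpc1, the slow-muscle isoform, had ratios of 0.32, 0.34, 0.31 and 0.20, a mean of 0.29 ± 0.062 (SD, n = 4) or 1.22-fold higher (adjusted p = 0.177, limma). Every Mybpc2 value was below every Mybpc1 value. Mybpc1 was dim, with processed signals of 310.2, 361, 405 and 478 untreated and 388, 552, 586 and 571 with follistatin, and the offset used in background correction shrinks such ratios. Mybph, a related protein of the thick filament, averaged 0.023 with 2 arrays on each side.

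**Figure D2:**
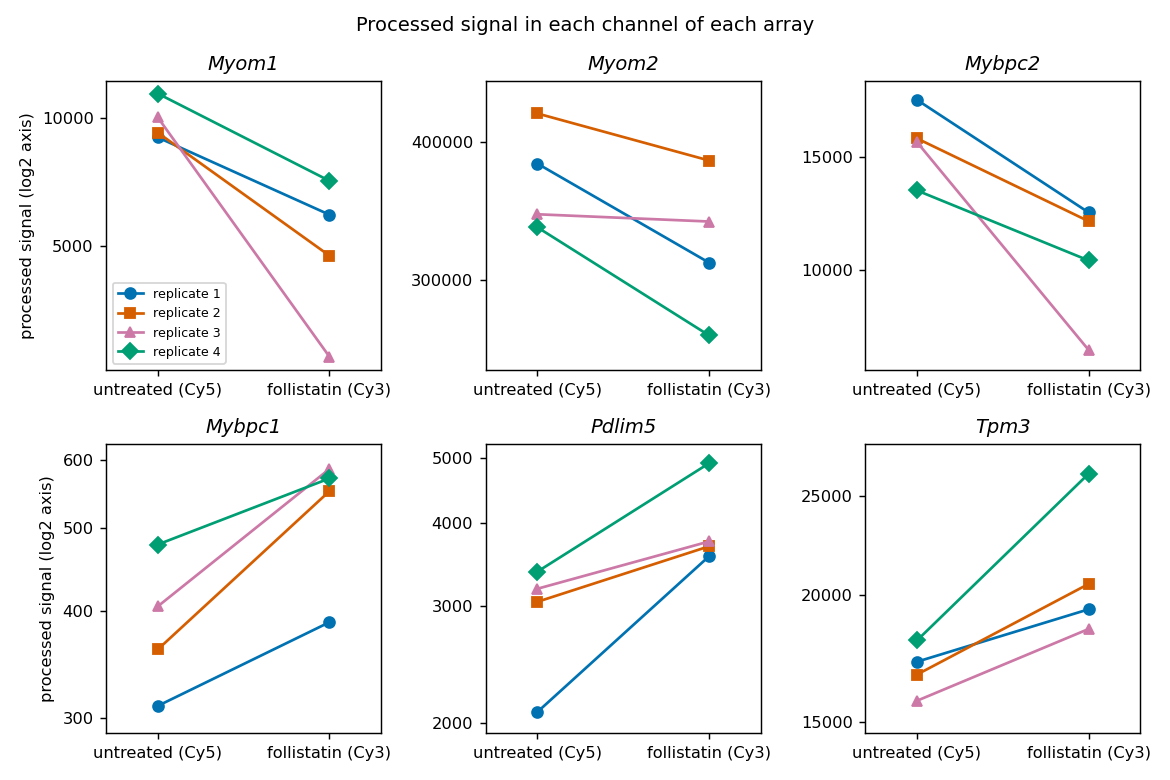
Processed signal of 6 genes in the untreated (Cy5) and follistatin (Cy3) channel of each array, on a log2 vertical axis that differs between panels, 1 line per replicate. Lines slope down for Myom1, Myom2 and Mybpc2 and up for Mybpc1, Pdlim5 and Tpm3 on all 4 arrays.

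Titin, the giant spring of the sarcomere, was read by 9 probes, and they did not give 1 answer. The brightest (A_51_P401792, shown above) had ratios of -0.30, -0.65, -1.98 and -0.94, a mean of -0.97 ± 0.72 (SD, n = 4) or 1.96-fold lower (limma adjusted p = 0.176), and -0.63 without replicate 3. The probe nearest the 5′ end, A_52_P524700, had the lowest mean of all member probes: -1.05, -1.64, -3.30 and -0.67, mean -1.66 (adjusted p = 0.155, limma), again below 0 on every array. A_52_P659477, in the middle of the gene, gave -0.55, -1.37, -2.61 and -0.16. Of the other probes, 5 had means from -1.12 to -0.022 with values on both sides of 0, 3 of them positive on replicate 4 by 0.070 to 1.14.

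The remaining titin probe went the other way. A_51_P148509, 0.524 kb from the 3′-most probe, had ratios of 1.04, 0.86, 0.84 and 0.087, a mean of 0.71 ± 0.42 (SD, n = 4) (adjusted p = 0.146, limma), the highest mean of any member probe. It lies next to A_51_P521106, which read 0.045, -1.62, -2.51 and 0.070 (mean -1.01), so neighbouring probes at the 3′ end of 1 gene gave means of opposite sign. The deposited annotation assigns both to the same titin transcript.

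Nebulin, the ruler of the thin filament, had the lowest mean of the 35 genes, and its 6 probes all averaged below 0, from -1.62 to -0.27. The brightest, at the 5′ side (A_51_P495331), read 72352, 89699, 89604 and 68808 untreated and 43055, 25178, 6993 and 58928 with follistatin, giving ratios of -0.77, -1.84, -3.61 and -0.26, mean -1.62 ± 1.48 (SD, n = 4) or 3.07-fold lower (adjusted p = 0.216, limma). Replicate 3 carried most of that mean, which was -0.96 without it. The other 5 probes were positive on replicate 4 in each case, by 0.043 to 1.08, and the second probe shown, A_51_P218535, gave -0.69, -1.33, -2.35 and 0.085. Nebulin was therefore lower on replicates 1 to 3 by 5 of 6 probes and on replicate 4 by 1 of 6.

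Filamin C, an actin crosslinker of the Z-disc and the sarcolemma, was the third gene whose probes disagreed. Its brightest probe gave 0.52, -0.012, 0.098 and -0.55 (mean 0.014), the 5′-most gave -0.035, -1.30, -1.77 and -0.62 (mean -0.93, adjusted p = 0.195 by limma) and A_51_P205907 gave 2.17, 0.86, 0.91 and -1.18 (mean 0.69). No direction can be given for Flnc from these.

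**Figure D3:**
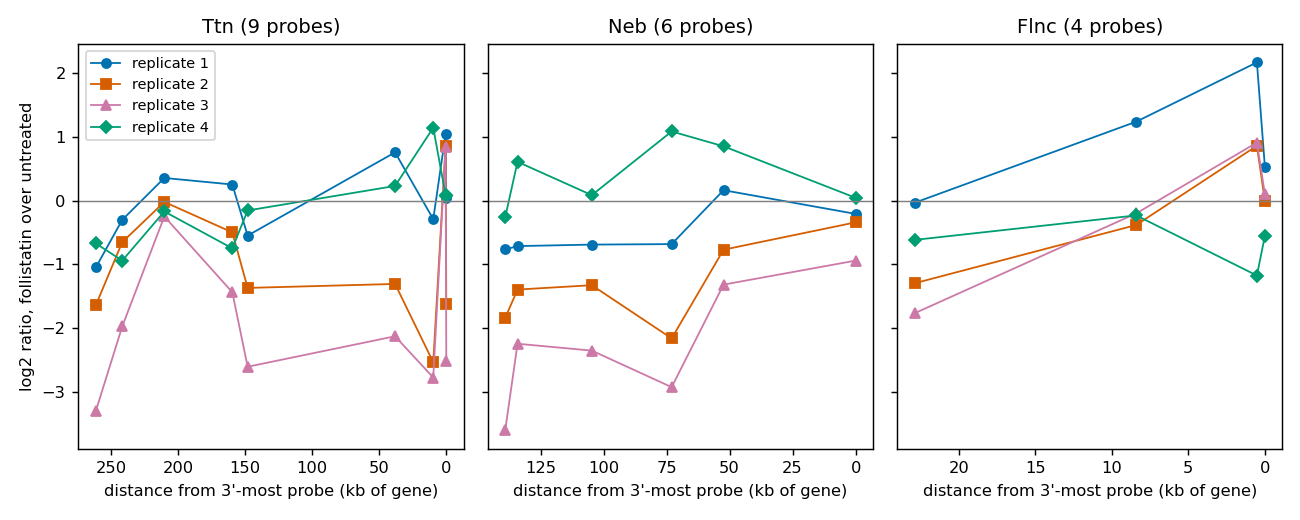
Log2 ratio of every tested probe of Ttn, Neb and Flnc (vertical axis) against its distance from the 3′-most probe of the gene in kb (horizontal axis, 5′ side on the left), with 1 line per replicate. The single 5′-most probe averaged -1.66 over the arrays for Ttn, -1.62 for Neb and -0.93 for Flnc, while the 3′ end of Ttn holds both a positive and a negative probe.

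Position along the transcript was compared with the ratio over the whole array. In 2225 other genes with tested probes at least 10 kb apart, the 5′-most probe minus the 3′-most probe had a median of -0.0043, -0.31, -0.40 and -0.13 on replicates 1 to 4, and the mean over arrays was below 0 in 71.9% of these genes. In the 10 members with such probes the medians were -0.10, 0.044, -0.43 and -0.36, with 7 of 10 means below 0. The same difference averaged -0.66 for Ttn, -1.26 for Neb and -0.94 for Flnc, but 0.28 for Myom1, -0.015 for Myom2 and 0.66 for Ldb3. A 5′-side probe thus tended to read lower in follistatin RNA across the array, most on replicates 2 and 3, and its part in the ratios of titin, nebulin and filamin C was not tested. For Myom1 and Myom2, the 5′-most and 3′-most tested probes both read below 0 on all 4 arrays. The deposited annotation assigns the 5′-most and 3′-most probes of Ttn, Neb, Flnc, Ldb3, Myom1 and Myom2 to different transcripts of the gene. Position and transcript form therefore cannot be told apart in these differences. Each difference also rests on 1 probe at either end, and close neighbours of some end probes read differently. At the 3′ end of Ttn the neighbour averaged 0.71, against -1.01 for the end probe. At that of Flnc it averaged 0.69, against 0.014. At the 5′ end of Ldb3 the neighbour averaged -0.24, against 0.22 for the end probe.

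Titin's ankyrin-repeat partners sit on its spring region and respond to strain. Ankrd2 had ratios of 0.23, -0.22, -0.58 and -0.16, a mean of -0.18 ± 0.33 (SD, n = 4) (adjusted p = 0.532, limma). Ankrd1, also known as CARP, had a mean of 0.29 with 3 arrays above 0 and replicate 4 at -0.58. Neither gene had 1 sign on all arrays, and the Ankrd2 mean was -0.32 without replicate 1 and -0.049 without replicate 3.

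In the Z-disc group of 12 genes, 8 means were below 0 and 4 above, and the median moved from 0.19 on replicate 1 to -0.22, -0.50 and 0.22 on replicates 2, 3 and 4. The members with 1 sign were both PDZ and LIM domain adaptors that bind alpha-actinin. Pdlim5 (ENH) had the highest mean of the 35 genes: its ratios were 0.79, 0.30, 0.24 and 0.54, mean 0.47 ± 0.25 (SD, n = 4) or 1.38-fold higher (adjusted p = 0.156, limma). The neighbouring probe shown above, A_52_P649177, gave 0.76, 0.27, 0.34 and 0.53, while the other 3 Pdlim5 probes averaged 0.10 to 0.17 and were below 0 on 1 or 2 arrays. The deposited annotation assigns those that averaged 0.15 and 0.17 to another Pdlim5 transcript, and the one at 0.10 to that of the high probes. Pdlim3 (ALP) was higher by less, at 0.0084, 0.095, 0.38 and 0.38 (mean 0.22, adjusted p = 0.338 by limma), and its value on replicate 1 was close to 0. The second Pdlim3 probe, with a mean of 0.25, was below 0 there, at -0.068.

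Actn2, the alpha-actinin that builds the Z-disc lattice, had ratios of 0.39, -0.37, -0.64 and -0.55, mean -0.29 ± 0.47 (SD, n = 4) (adjusted p = 0.445, limma). Replicate 1 lay above 0 and the other 3 below, and the mean was -0.52 without replicate 1 and -0.18 without replicate 3. Actn3, the fast-fibre alpha-actinin, had the same layout around a mean of -0.30. By contrast their non-muscle paralogs, which serve stress fibres and adhesions, were above 0 on all 4 arrays: Actn1 gave 0.85, 0.40, 0.35 and 0.72 (adjusted p = 0.12) and Actn4 0.89, 0.54, 0.96 and 0.36 (adjusted p = 0.109), both by limma. The difference between the muscle and the non-muscle forms was not tested.

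Of the remaining Z-disc genes, the titin cap telethonin (Tcap) averaged -0.16, the LIM protein Csrp3 -0.33, the PDZ-LIM protein Ldb3 (ZASP) -0.44, myotilin (Myot) -0.12 and the calcineurin-binding myozenins 0.0094, -0.0074 and -0.024 for Myoz1, Myoz2 and Myoz3. On these brightest probes each of the 7 genes had arrays on both sides of 0 in the loess values. Myoz3 was dim, with processed signals of 20.7 to 35.9, where the offset shrinks ratios. Its processed signals gave log2 ratios of -0.29, -0.37, -0.24 and -0.12, below 0 on each array. For Tcap, Csrp3, Ldb3 and Myot, replicates 2 and 3 were below 0 and replicate 4 above it, which for Ldb3 meant -1.27, -1.25 and 1.06. These means are smaller than the spread between the replicates. Other probes of 3 of the genes read differently. The second Myoz2 probe gave -0.63, -0.80, -1.06 and 0.076 (mean -0.60, adjusted p = 0.205 by limma), below 0 on 3 arrays. Ldb3 probe A_51_P265351 averaged 0.22 and the second Myoz1 probe 0.15, both above 0 on all 4 arrays. That Ldb3 probe read 0.69 on replicate 1 and 0.051 to 0.075 on the others. The third Ldb3 probe, A_51_P265348, gave 0.11, -0.67, -0.51 and 0.10 (mean -0.24).

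The thin-filament group of 8 genes had 6 means above 0 and a median of 0.20. Tpm3, the slow-muscle and cytoskeletal tropomyosin gene, had ratios of 0.20, 0.30, 0.23 and 0.55, mean 0.32 ± 0.16 (SD, n = 4) or 1.25-fold higher (adjusted p = 0.195, limma). Its second probe was above 0 on all 4 arrays as well, with a mean of 0.37. Tpm1 and Tpm2 had means of 0.40 and 0.36, with replicate 1 highest (0.83 and 1.26) and replicate 4 below 0 (-0.14 and -0.29). The Tpm2 value is that of the probe shown above, and the alike Tpm1 probe averaged 0.29. Tmod4, the tropomodulin of skeletal muscle that caps the pointed end, gave 0.076, 0.053, 0.42 and 0.30 (mean 0.21, adjusted p = 0.331 by limma) on a dim probe.

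Tmod1, another tropomodulin, showed how much 2 probes of 1 place can differ. Its brighter probe averaged 0.010 (0.037, 0.063, -0.20 and 0.14), whereas A_51_P297068, which overlaps it and starts a little downstream, averaged 0.49 (0.54, 0.63, 0.53 and 0.23) with the smallest adjusted p of any member probe, 0.124 by limma. The leiomodins Lmod2 and Lmod3, which nucleate actin at the pointed end, had means of -0.12 and 0.20 with arrays on both sides of 0.

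Desmin, the muscle intermediate filament, varied more between arrays than any member but nebulin. Its processed signal was 15094, 42323, 42793 and 56974 untreated and 50718, 41182, 33641 and 31064 with follistatin, so the untreated reading of replicate 1 was the one that stood apart. The ratios were 1.75, -0.057, -0.38 and -0.89, a mean of 0.11 ± 1.15 (SD, n = 4) (adjusted p = 0.913, limma, 95% interval -0.97 to 1.19), and without replicate 1 the mean was -0.44. The repeat proteins that link filaments at junctions followed a similar layout in part: Xirp1 gave 1.15, 0.18, -0.30 and -0.062 (mean 0.24) and Xirp2 0.29, 0.55, -0.045 and 0.13 (mean 0.23, 0.12 without replicate 2). Nrap, a scaffold of myofibril assembly, averaged 0.015 with 2 arrays on each side. All 4 tested genes of this group had means above 0, with a group median of 0.99 on replicate 1 and of -0.34 to 0.062 on the others.

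The reference gene Gapdh had the same array to stand apart, with 1.31, -0.44, -0.66 and -0.13, and Actb gave 0.93, 0.87, 0.80 and -0.35. Of the 12 reference genes listed, 9 had means above 0 (49.5% of all probes), with a median of 0.25. Their medians on replicates 1 to 4 were 0.44, 0.21, 0.31 and 0.068. On all 4 arrays 4 of them were above 0 (12.8% of all probes) and 2 below (14.5%). Hprt and Rplp0 read below 0 on replicate 1, at -0.20 and -0.23. The differentiation factor Myog was below 0 on all 4 arrays (-0.12, -0.43, -0.50 and -0.49), while the muscle actin Acta1 (0.82, -0.45, -0.77 and -0.61) and embryonic myosin Myh3 (0.35, -0.81, -1.30 and -0.70) were above 0 on replicate 1 and below it on the others. Replicate 1 thus read high for desmin, Xirp1, skeletal actin and Gapdh together, and no cause of this was tested.

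The assembly factors were read by few probes. Unc45b, the myosin chaperone of striated muscle, gave -0.29, -0.45, -0.73 and 0.054, mean -0.35 ± 0.33 (SD, n = 4) (adjusted p = 0.273, limma). Smyd1, the methyltransferase that works with it, gave 0.078, -0.099, -0.51 and 0.14, mean -0.096, and its second probe averaged 0.032. Unc45b was lower on replicates 1 to 3 and near 0 on replicate 4 (mean -0.23 without replicate 3), and Smyd1 lay on both sides.

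**Figure D4:**
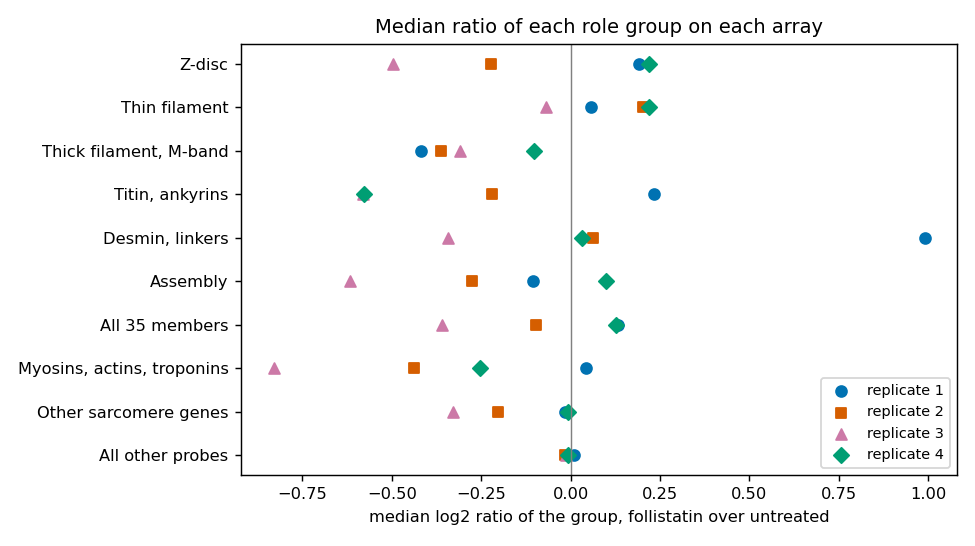
Median log2 ratio of each role group on each array (horizontal axis), 1 symbol per replicate, with the 35 genes together, the myosins, actins and troponins, other sarcomere genes and all other probes beneath. The list of other sarcomere genes includes non-muscle paralogs such as Actn1 and Actn4. The thick-filament and M-band group lies left of 0 on all 4 arrays, and the medians of all other probes run from -0.016 to 0.0099.

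Other sarcomere genes and their relatives also lay on both sides of 0. A list of 39 further genes held structural and regulatory proteins of the sarcomere and some broader ones, among them the non-muscle paralogs Actn1 and Actn4. Of its means, 24 were below 0 (50.5% of all probes) and 15 above, with a median of -0.057. None passed limma's adjusted threshold (0% of all probes). At an unadjusted p under 0.05 by limma, 5 were lower (10.5% of all probes) and 3 higher (8.57% of all probes). The lowest p-values belonged to the ubiquitin ligase Trim55 of the M-band (-1.07, -1.27, -1.73 and -0.84, adjusted p = 0.0991), the Z-disc protein Synpo2l (mean -0.53) and the ligase Trim54 (mean -0.53) on the low side. On the high side they belonged to the non-muscle alpha-actinins Actn4 and Actn1 and the caveolar protein Murc (mean 0.50). These were the 3 counted above as higher. Synpo2l had a second tested probe, which averaged 0.19. Of the 21 myosins, actins and troponins, 18 had means below 0 (50.5% of all probes), with a median of -0.35 against -0.0074 for the genes described here. No test of that difference was made, since the lists were chosen with results known.

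The promoters of the members were read for the motifs of muscle transcription factors. Myom1, Mybpc2 and Ttn are shown because their brightest probes were below 0 on all arrays, though other titin probes were not. Neb and Myom2 were also below 0 on all arrays by their brightest probes, but had no promoter in the set used. RefSeq start sites of GRCm38.p6 gave 32 promoters for 27 of the 36 genes, each read over the 250 bases upstream on both strands. An E-box (CANNTG), bound by MyoD family factors, was found in 25 of 32 (78.1%; 66.2% of all 32851 promoters), and the MEF2 motif in 4 of 32 (12.5%; 2.92% of all). The MEF2 matches lay upstream of Ttn, Myom3, Myoz2 and Xirp2. A match is a run of letters and not evidence of binding. The promoters of Myom1 (chr17:71019307-71019556, plus strand), Mybpc2 (chr7:44524670-44524919, minus strand) and Ttn (chr2:76982548-76982797, minus strand) follow in the direction of transcription, with E-boxes and the MEF2 match in capitals.
Myom1 promoter: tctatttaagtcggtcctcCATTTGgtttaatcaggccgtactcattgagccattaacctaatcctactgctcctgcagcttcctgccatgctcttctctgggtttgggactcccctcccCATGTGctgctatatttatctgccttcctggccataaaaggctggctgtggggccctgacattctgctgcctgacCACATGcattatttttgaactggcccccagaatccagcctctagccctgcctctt
Mybpc2 promoter: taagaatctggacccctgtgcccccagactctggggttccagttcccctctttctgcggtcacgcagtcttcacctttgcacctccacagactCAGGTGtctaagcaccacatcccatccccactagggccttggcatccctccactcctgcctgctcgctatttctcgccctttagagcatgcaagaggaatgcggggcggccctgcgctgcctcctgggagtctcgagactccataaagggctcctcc
Ttn promoter: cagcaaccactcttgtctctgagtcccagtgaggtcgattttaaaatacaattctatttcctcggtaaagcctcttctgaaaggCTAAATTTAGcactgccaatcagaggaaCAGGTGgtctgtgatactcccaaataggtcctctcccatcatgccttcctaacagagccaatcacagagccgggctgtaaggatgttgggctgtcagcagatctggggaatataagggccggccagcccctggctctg

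These carry 3, 1 and 1 E-boxes, and the MEF2 match of titin lies upstream of its E-box. Pdlim5 and Mybpc1, which read higher, also hold E-boxes in this window.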

How the data were processed

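The authors quantified the spots of the 4 arrays in Agilent Feature Extraction (10.7.3.1 in the submitters' processing notes, but 10.10.1.1 for replicate 4 per the file headers). The deposited intensity values are median spot and background brightness and the software's processed signals; the deposited log10 ratios (Cy5 over Cy3) and the authors' table of log2 values were read to settle direction, and each column of that table was the log2 of processed Cy3 over Cy5 on its array (slope 1.00, column medians -0.16, 0.17, 0.13 and 0.11). No further centring is visible in it.

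Here, with limma 3.58.1, data.table (version 1.17.8) and statmod 1.5.0 in R 4.3.3, median signals were corrected by normexp (offset 50), normalized by loess within arrays (span 0.3, 4 iterations, control spots at weight 0), stripped of outlier spots and averaged by probe. Of 41174 probes, 27017 were tested, those well above background in 1 channel on at least 3 of 4 arrays. The ratio was tested against 0 with lmFit and eBayes (two-sided, Benjamini-Hochberg over all tested probes, threshold 0.05), and the brightest probe stood for a gene. The code was tested on simulated data. Plotted and quoted channel signals are the deposited processed signals, not the loess values. The deposited files place probes on mm9. Promoters came from RefSeq (GRCm38.p6).

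The members, role groups and other lists were chosen with earlier results of these data known. Full values are given for the 2 members of smallest p in each role group, members of 1 sign on all arrays, the highest and the lowest, Des, Ttn, Neb and Actn2, and genes whose probes differ by over 1. Of other lists, 3 genes of smallest p per direction and Myog, Acta1, Myh3, Gapdh and Actb are named; a few more are named beside them, chosen after their values were seen. Other background corrections, normalizations, filters, probe choices, slide blocks, array weights and replicates left out were tried as alternatives.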

Additional observations from a re-analysis of the deposited data

Results flagged for a closer look

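In 2 of the 70 tested member probes, 1 array stood far from the other 3, where chance flags about 1 in 20 probes. The Flnc probe A_51_P349844 read 1.24 on replicate 1, with the remaining arrays at -0.38 to -0.20. The Ldb3 probe A_51_P265351 read 0.69 there and from 0.051 to 0.075 elsewhere. Both gaps were to replicate 1.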

How the results depend on the processing

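Under every alternative the direction of 14 of the 18 fully described members was kept, and their adjusted p stayed above the threshold except under array weights. There, 5 member genes passed, at log2 ratios of 0.31 for Mybpc1, -0.66 for Mybpc2, -1.19 for Myom1, -0.36 for Myom2 and -2.16 for Neb, and 3704 probes passed in all. The probes passing were 2 with processed signals, with the same signals median-centred and in the authors' deposited table. Members with 1 sign numbered 17 on slide 1 alone, the same arrays as without replicate 4 (48.6%, against 50.4% of all probes), and 10 to 17 with 1 replicate left out (28.6% to 48.6%, against 31% to 50.4%). With replicates 2 and 3 averaged, 12 members had 1 sign and 0 passed. As means over a gene's probes, 3 members were below 0 on all arrays (8.57%, against 15.6% of all 17848 genes or unnamed probes). In the same setting 6 were above (17.1%, against 11.7%). By the probe nearest the 3′ end, 3 were below (8.57%, against 14.5% of all probes) and 5 above (14.3%, against 12.8%). Signs reversed for Des (-0.034 under array weights; -0.44 to 0.44 with 1 replicate left out, negative without replicate 1), Xirp1 (-0.062 to 0.42, negative without replicate 1) and Smyd1 (-0.18 to 0.041, positive without replicate 3). Flnc reversed with median-centred processed signals (-0.0036), median centring in place of loess (-0.094), the mean over its probes (-0.030) and slide as a random block (-0.023), and ran from -0.15 to 0.20 with 1 replicate left out, negative without replicate 1 (-0.15) or 3 (-0.014). The cause of these reversals was not tested. Sizes moved by over 1.5 times for others that kept their sign: Myom2 from -0.63 (median centring) to -0.20 (processed signals), Tmod4 to 0.60 and Xirp2 to 0.38 with processed signals, Pdlim3 to 0.11 with median centring, Neb to -0.91 and Pdlim5 to 0.27 as means over their probes, and Actn2 (-0.52 to -0.18), Ankrd2 (-0.32 to -0.049), Unc45b, Ttn, Neb and Xirp2 with 1 replicate left out. With the probe nearest the 3′ end, chosen after seeing the data, Neb read -0.36 and Pdlim5 0.17. Each array holds both groups, so its ratio is already the paired value and the test against 0 is the paired analysis. Dim probes such as those of Mybpc1, Tmod4 and Myoz3 have ratios shrunk by the offset.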
